A study of Drosophila melanogaster with 6 samples.

Results

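The regions described here are the 335 USP-GFP regions that the deposited list places on the X chromosome of Drosophila melanogaster, out of 3791 regions in all (8.84%). They were chosen by chromosome name alone, with no limit on score or width. They were compared with the 668 regions of 2L, the 795 of 3L and the 797 of 3R. The study used ChIP-seq, in which DNA bound to a precipitated protein is sequenced, on animals of the strain USP-GFP at 12 hours after the white prepupal stage (WPP+12hrs). For all libraries the culture temperature was 25 °C, and crosslinking took 15 min in 1.8% formaldehyde. Per the labels, all 6 libraries share the genotype PBac{y[+]-attP-3B}VK00033, an attP docking site on 3L, and a transgene holding the genomic coding region of usp. The labels' protocols name y; bw cn sp flies instead, and the labels do not settle which flies gave the chromatin. One group of 3 libraries was made from DNA precipitated by a rabbit antibody to GFP, polyclonal per the labels, and the other group of 3 from input DNA of the same stage. No label gives the sex of the animals, so the number of X copies in the chromatin is unknown.

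Ultraspiracle (USP) is a nuclear receptor related to the retinoid X receptors of vertebrates. It pairs with the ecdysone receptor EcR, and the pair binds DNA and switches gene programmes when pulses of the steroid hormone ecdysone drive moulting and metamorphosis. The collected stage lies near the passage from prepupa to pupa, which such a pulse triggers. The X carries the usp gene itself and is the chromosome that males hold as a single copy and transcribe at a raised rate through dosage compensation.

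The list gives each region a start, an end and a score of the authors' peak caller, read here as the −log10 of a p-value, so that a higher score means a rarer pileup under the caller's background. It holds no value per library, so no spread between replicates can be given and the depth of each library is unknown. Intervals below cover counting error only. No control precipitation without the GFP tag is in the series, so a listed region is not by itself shown to be bound by USP. How input entered the call is not given in the sources used, so enrichment over input at each region is not shown either. Positions are on FlyBase release 5, and since no gene annotation of that release was used, no region is given a gene, exon or intron. Whether an X region lies at usp, where reads of the transgene could also be placed, was therefore not checked.

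The X carried fewer regions for its length than each comparison arm. It held 15.1 regions per Mb (exact Poisson 95% interval 13.5 to 16.8) between its first region at 234002 and its last at 22422863. The densities were 29.8 per Mb on 2L (27.6 to 32.2), 32.6 on 3L (30.3 to 34.9) and 28.6 on 3R (26.6 to 30.6), and none of these intervals overlapped that of the X. The density ratio of the X was 0.51 to 2L (0.44 to 0.58), 0.46 to 3L (0.41 to 0.53) and 0.53 to 3R (0.46 to 0.60). The least extreme of these comparisons had an adjusted p of 3.1e-24 (exact binomial test of counts given lengths, two-sided, Benjamini-Hochberg over 4 comparisons). The test treats regions as independent although they cluster, so it was also made on loci, where a locus is either a region standing alone or a cluster chained by steps of up to 5 kb between centres. The X held 207 loci, or 9.33 per Mb, against 15.3 per Mb on 2L, 3L and 3R together, a ratio of 0.61 (0.52 to 0.71, adjusted p = 2.2e-11 by the same exact test). Chaining over 5 kb leaves unevenness at longer distances, and region counts per 500 kb had variances of 4.17 to 8.24 times the mean. None of the density tests here allows for that, so their intervals are likely too narrow and their p-values too small. A locus held 1.62 regions on average on the X, 1.94 on 2L, 2.05 on 3L and 1.93 on 3R. With a fixed chaining distance, sparser regions give fewer regions per locus, so this lower number goes with the lower density. Regions covered 7.43 bp per kb of the X, against 14.3 on 2L, 15.9 on 3L and 13.2 on 3R.

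Single regions of the X were built much like those elsewhere. Their median width was 331 bp (quartiles 251 and 536.5), against 344 bp on 2L, 365 bp on 3L and 346 bp on 3R. The narrowest width, 200 bp, was found in 13 X regions, and 31 X regions (9.25%, exact binomial 95% interval 6.37 to 12.9%) were at least 1000 bp wide, against 6.99% (5.97 to 8.12%) on the 3 arms together. The median score was 13.6 on the X (quartiles 10.5 and 19.5), 12.6 on 2L and 12.7 on both 3L and 3R. Wider X regions had higher scores, with a Spearman rho of 0.69 and a Pearson r of 0.64 across the 335 regions, close to the 0.65 and 0.65 across the 2260 regions of the other arms. Both values come out of a single call of a region, so this is a property of the list. From the lowest to the highest scores the median width of X regions rose from 246.5 bp (scores from 6 to below 10, 68 regions) to 591 bp (20 to below 30, 47 regions) and 1363 bp (50 and above, 11 regions).

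**Figure D1:**
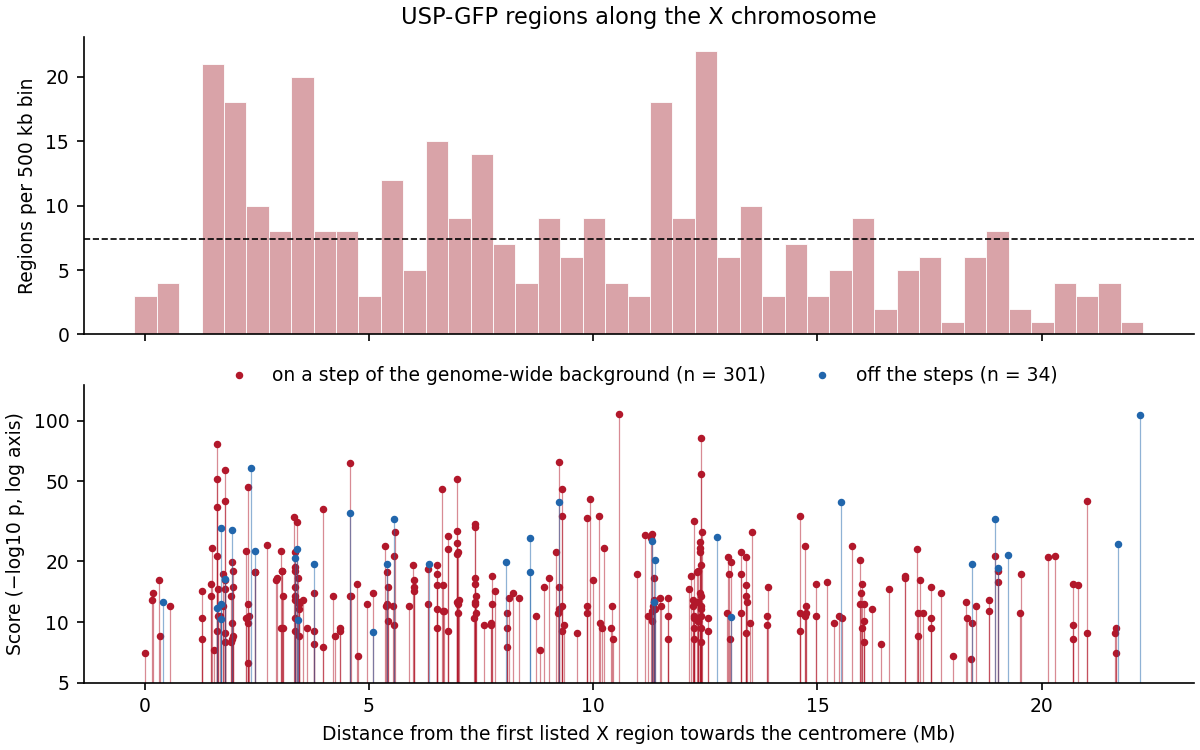
Regions along the X, with distance from the first listed region in Mb on the horizontal axis. The upper bars count regions per 500 kb bin, with the mean of 7.44 as a dashed line. The lower points give the score of each of the 335 regions on a log axis. Colour shows whether the score lies on a step of the background fitted to the scores, called genome-wide in the key. Regions crowd near the telomere side and again near 12 Mb, and thin out towards the centromere.

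Along the X, regions were crowded on the telomere side and sparse on the centromere side. Of the 335 regions, 198 (59.1%, 53.6 to 64.4%) lay on the telomere side of the midpoint between the first and the last region, against 54.3% on 2L, 48.7% on 3L and 47.2% on 3R. With the X cut into 4 equal parts of 5.55 Mb, the density was 20.0 per Mb in the part nearest the telomere, 15.7 and 17.3 in the middle parts and 7.39 in the part nearest the centromere, where 41 regions were listed. In that last part the X stood at 0.49 times its own mean, and the corresponding parts stood at 0.92 times the mean on 2L, 0.76 on 3L and 1.14 on 3R. The median score did not follow the density, at 13.6, 14.2, 12.6 and 13.9 from telomere to centromere. Whether the profile of the X differs from those of the other arms was not tested.

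**Figure D2:**
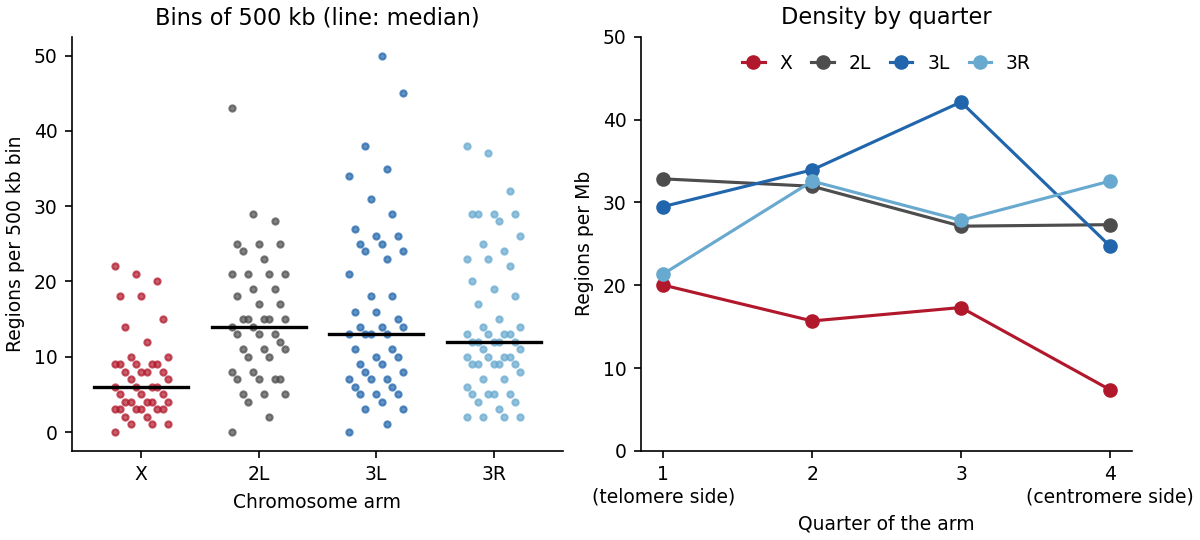
Left, regions per 500 kb bin on each arm, with 1 point per bin and the median as a line (6 on the X, 14 on 2L, 13 on 3L, 12 on 3R). Right, regions per Mb in 4 equal parts of each arm ordered from the telomere to the centromere side; the X lies below the other arms in all 4 parts and falls to 7.39 in the last.

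In bins of 500 kb the X held 7.44 ± 5.57 regions (SD over 45 bins), with a median of 6 and a range of 0 to 22. Bins with at most 3 regions made up 12 of the 45 on the X (26.7%), against 4.44% of bins on 2L, 8.16% on 3L and 8.93% on 3R. Bins with 15 or more made up 13.3% on the X and 33.9 to 48.9% on the others. With fixed limits, both differences go with the lower density of the X. The counts varied more than under independent placement at a constant rate, where the variance divided by the mean is near 1. This ratio was 4.17 on the X, 4.71 on 2L, 8.24 on 3L and 6.20 on 3R. It rises with the mean count at the same relative unevenness, so the X and the denser arms are not directly comparable. Counted from position 1, the richest bin of the X, from 12500001 to 13000000, held 22 regions, of which 7 scored at least 20. The next were the bin from 1500001 to 2000000, with 21 regions, and that from 3500001 to 4000000, with 20. The order depends on where bins begin: shifted by 250 kb, the richest bin held 31 regions, from 1750001 to 2250000, followed by 28 from 12250001 to 12750000. The 5 richest unshifted bins together held 99 of the 335 regions (29.6%).

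Regions were dense in a pair of stretches, whose limits were set after the bins were seen. The longer, from 1500001 to 4000000, held 77 regions in 2.5 Mb, or 30.8 per Mb, a level near the mean of the comparison arms. In this stretch 57 of the 77 regions (74.0%) had a neighbour within 5 kb, centre to centre, and 5 of the 10 X clusters with 5 or more regions lay in it. The shorter, from 11500001 to 13000000, held 49 regions in 1.5 Mb, or 32.7 per Mb, of which 36 (73.5%) had such a neighbour, and 3 of the 10 clusters. From 16500001 to the last region, 26.7% of the listed length held 43 regions (12.8%), or 7.26 per Mb. There 18 regions (41.9%) had such a neighbour, and no cluster of 5 or more was found. The telomere-side end before 1500001 was poor as well, with 7 regions, none of which had a neighbour within 5 kb or a score of 20. A fixed distance of 5 kb finds more neighbours and larger clusters where regions are denser. The neighbour shares and cluster counts of these stretches therefore go with the density by which they were drawn, and are no separate result.

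The longest stretch without a region ran from 795372 to 1509995, over 715 kb, and it holds the only empty unshifted 500 kb bin, from 1000001 to 1500000. It ends where the dense stretch up to 4000000 begins. An empty stretch of 713 kb from 14132299 to 14844838 came next. The following 3 all lay towards the centromere, at 21240501 to 21858307 (618 kb), 19769389 to 20372005 (603 kb) and 21926420 to 22422248 (496 kb). These 5 gaps made up 3.14 Mb, or 14.2% of the listed length. Gaps over 100 kb numbered 75 on the X and took up 79.8% of its length, against 63.6% on 2L, 55.1% on 3L and 62.4% on 3R. A fixed limit of 100 kb is passed more often where regions are sparser, so this higher share goes with the lower density. Stretches in which reads cannot be placed are not marked in the list, so an empty stretch is not shown to lack USP.

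The highest scores on the X were reached at 11 regions of 51.3 or more, where the tenth place was shared. Of these, 10 lay before 13 Mb, where most X regions lay. That limit is the end of the richest 500 kb bin and so was taken from these data. The other was the last listed region, in the stretch from 16500001 on that held 12.8% of all X regions. The count is therefore not read as a trait of the highest regions. The highest, 108.11, belonged to a region of 2012 bp from 10817770 to 10819781. It stood alone, with 139 kb to the region before it and 400 kb to the one after it. The second, 106.4, belonged to the very last region of the chromosome, 615 bp from 22422249 to 22422863, which stood 496 kb from any other. The third, 82.35, lay at 12644515 to 12647358 inside a cluster. For comparison, the highest scores were 161.07 on 2L, 123.08 on 3L and 79.84 on 3R. The highest on 3L, from 24462044 to 24463747, was likewise the last listed region of its arm. Whether repeats or the ends of the assembled sequence play a part in such scores was not tested.

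The next on the X was the region from 1840771 to 1843167 (76.73), and the same cluster holds the one from 1843913 to 1846776 (51.3). The region from 9478429 to 9479757 reached 62.43, and that from 4803611 to 4804888 reached 61.28. The region from 2597764 to 2598129 reached 58.19 although only 366 bp wide, and it too stood alone. The remaining 3 lay at 2031028 to 2032390 (56.77), 12628474 to 12630694 (54.56) and 7200919 to 7201634 (51.3). Of the 11, 8 were in clusters, where 57.0% of all X regions lay. Each of these 8 had another region within 1 kb of its edge. Short gaps were common on the X, where the lower quartile of all gaps was 1.09 kb. The share among all clustered X regions was not computed, so this is not read as a trait of the highest regions.

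Width picked out partly different regions. The widest, 2961 bp from 3635948 to 3638908, had a score of 31.49, and 5 of the 10 widest were among the 11 highest. Outside that shared set the next widths were 2635 bp at 3621172 to 3623806, with a score of 23.15, 2354 bp at 2964697 to 2967050, with 24.19, and 2096 bp at 1836578 to 1838673, with 37.06. The tenth was 1752 bp wide, at 3570661 to 3572412, with a score of 33.31. All 10 lay before 13 Mb, as did most X regions, and the stretch from 16500001 on held only 12.8% of X regions. This is therefore not read as a trait of the widest regions. They made up 24.1 kb, or 14.6% of the sequence that X regions cover. The widest regions of the comparison arms reached 6010 bp on 2L, 3651 bp on 3L and 3008 bp on 3R.

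**Figure D3:**
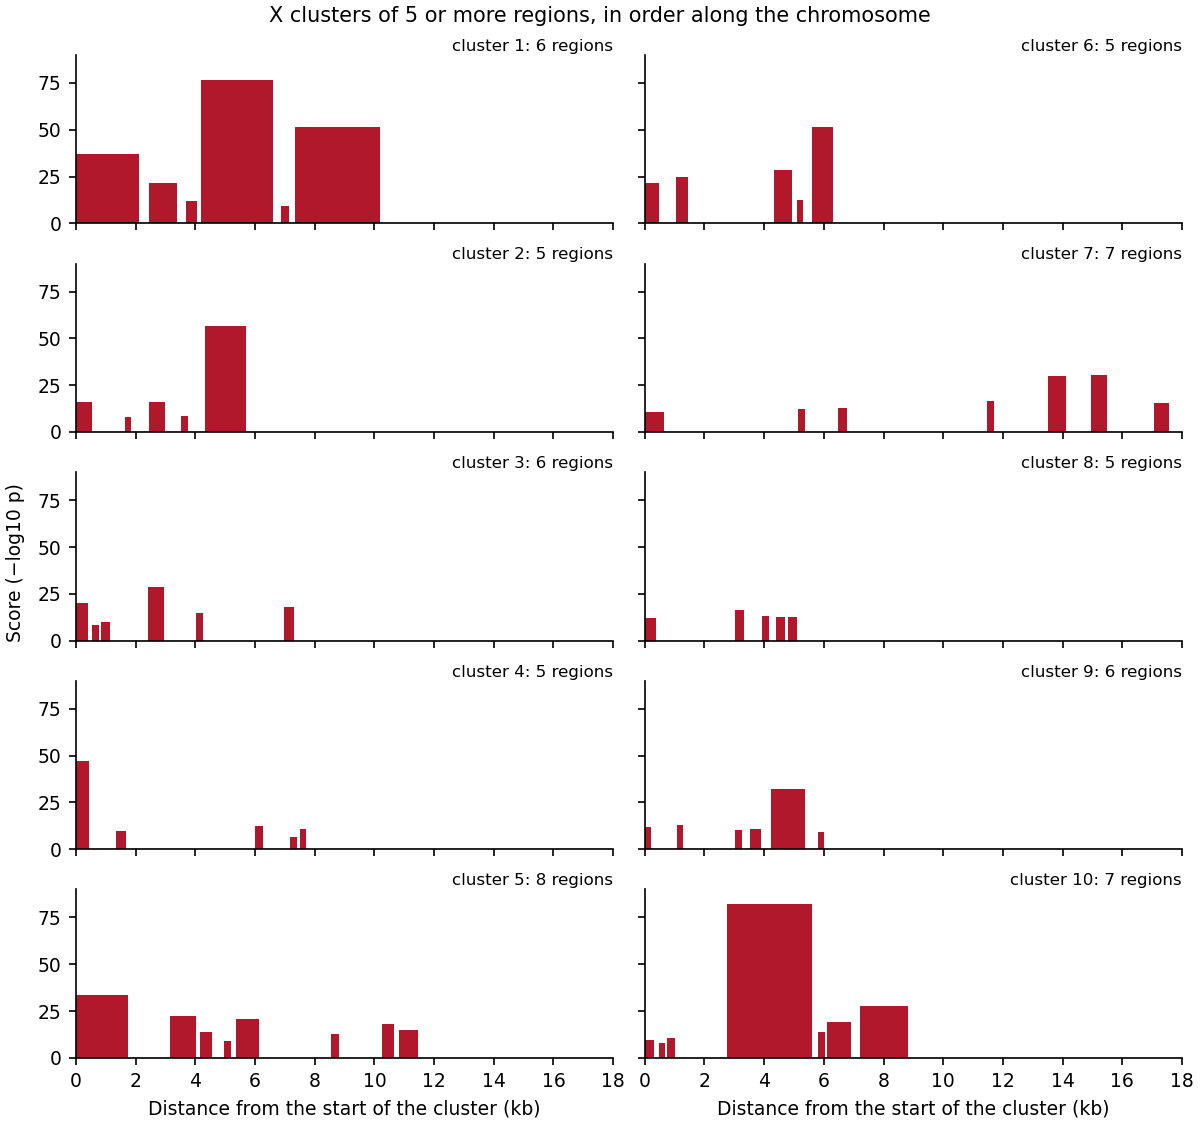
The 10 clusters of the X with 5 or more regions, in order along the chromosome. Each bar spans a region, with distance from the start of the cluster in kb on the horizontal axis and the score as height; cluster 1 is nearly filled by its 6 regions, while cluster 7 spreads 7 regions of moderate score over 17.6 kb.

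At the same fixed distance, which finds smaller clusters where regions are sparser, the X held fewer and smaller clusters than the comparison arms. Chaining by steps of up to 5 kb left 144 regions alone and put 191 into 63 clusters, of which 31 were pairs, 32 held 3 or more and 10 held 5 or more. The largest held 8 regions on the X, 10 on 2L, 21 on 3L and 18 on 3R, and clusters of 10 or more numbered 3 on each of these 3 arms. Regions in clusters of 3 or more made up 38.5% of the X and 50.8% of the 3 arms together.

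The tightest of the large X clusters ran from 1836578 to 1846776, where 6 regions filled 87.8% of 10.2 kb with gaps of 131 to 333 bp. In order, their scores were 37.06, 21.4, 11.75, 76.73, 9.07 and 51.3, so that tall, wide regions stood beside narrow, low ones. Merged across gaps of up to 500 bp, these 6 became a single stretch of 10199 bp, the widest on the 4 sequences after such merging, with 9845 bp on 3R next. The cluster with the most regions ran from 3570661 to 3582106, where 8 regions scored from 9.07 to 33.31 and filled 46.3% of 11.4 kb.

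At 12641762 to 12650590, 7 regions filled 71.1% of 8.83 kb around the region of score 82.35, while the others there scored from 8.01 to 27.96. At 7585815 to 7603394, 7 regions were spread over 17.6 kb and filled 17.2% of it, with a top score of 30.59. Of the other clusters, those at 2187627 to 2194915 and 12469026 to 12475036 held 6 regions each, with top scores of 28.65 and 31.94. Those of 5 regions lay at 2026712 to 2032390 (top score 56.77), 2540234 to 2547951 (47.07), 7195326 to 7201634 (51.3) and 11575643 to 11580738 (16.59). In 9 of these 10 clusters at least 1 region scored 20 or more, and the exception was the last named. Among all clustered X regions 25.7% scored at least 20, so a cluster of 5 or more would often hold one. The count therefore says nothing further on large clusters.

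Clustered and lone X regions had similar scores at the middle of their ranges. The median was 13.6 for the 191 clustered regions and 13.4 for the 144 lone ones, and the share with a score of at least 20 was 25.7% and 20.8%. On the 3 arms together these shares were 19.6% and 15.2%. Clustered X regions had a median width of 354 bp and lone ones of 310.5 bp.

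**Figure D4:**
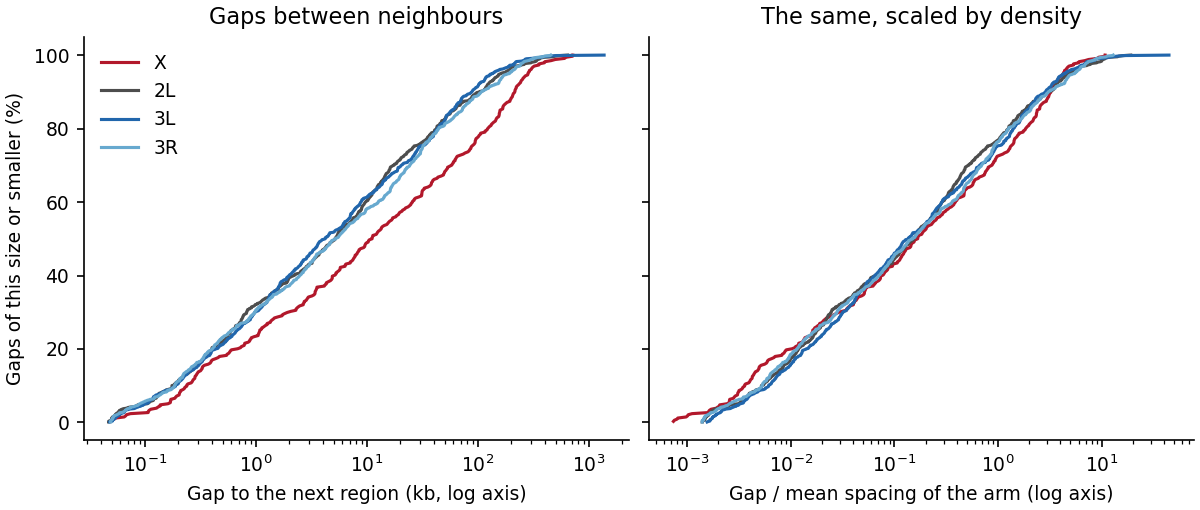
Cumulative share of gaps between neighbouring regions by size, in kb on a log axis (left) and divided by the mean spacing of the arm, also on a log axis (right). On the left the X lies to the right of the other arms, with a median gap of 11.1 kb; on the right the medians lie between 0.14 and 0.17 on all 4 sequences, while the upper quartile of the X, 1.32, lies above the 0.79 to 0.96 of the others.

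Neighbouring X regions lay further apart in bp than those of the other arms, but less so once density was allowed for. The median gap from the end of a region to the start of the next was 11.1 kb on the X (quartiles 1.09 and 87.3 kb, 334 gaps), against 5.15 kb on 2L, 4.21 kb on 3L and 5.20 kb on 3R. Divided by the mean spacing of each arm, which was 66.2 kb on the X and 30.7 to 35.0 kb on the others, the median gap was 0.17 on the X, 0.15 on 2L, 0.14 on 3L and 0.15 on 3R. After merging across gaps of up to 500 bp these medians were 0.30, 0.24, 0.23 and 0.32 in the same order, so the X no longer had the longest. The upper quartile of the unmerged scaled gaps was 1.32 on the X and 0.79 to 0.96 on the others. With a neighbour within 5 kb, centre to centre, were 191 X regions, or 57.0% (51.5 to 62.4%), against 70.9% (69.0 to 72.8%) on the 3 arms together. A fixed distance finds fewer neighbours where regions are sparser, so the lower share goes with the lower density and says nothing further on clustering. The smallest gap was 49 bp on the X and 47 to 49 bp on the others.

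The deficit of the X narrowed as the score limit was raised. Counting only scores of at least 10, the density ratio of the X to the 3 arms together was 0.52 (0.45 to 0.59), with 267 X regions. At scores of at least 20 it was 0.64 (0.50 to 0.82, adjusted p = 0.00042, exact binomial test), with 79 X regions against 414. At 30 and above 32 X regions were set against 150, a ratio of 0.72 (0.47 to 1.06, exact binomial test, adjusted p = 0.187), and at 50 and above 11 against 30, a ratio of 1.23 (0.56 to 2.53, adjusted p = 1.0). The last 2 intervals include 1, so a difference in density was not detectable at these counts, and the first of them also includes the ratio of 0.50 seen over all scores. The sets are nested and the change of the ratio with the limit was not itself tested. The share of regions with a score of at least 20 was 23.6% on the X (19.1 to 28.5%), 16.8% on 2L (14.0 to 19.8%), 20.1% on 3L (17.4 to 23.1%) and 17.8% on 3R (15.2 to 20.7%).

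**Figure D5:**
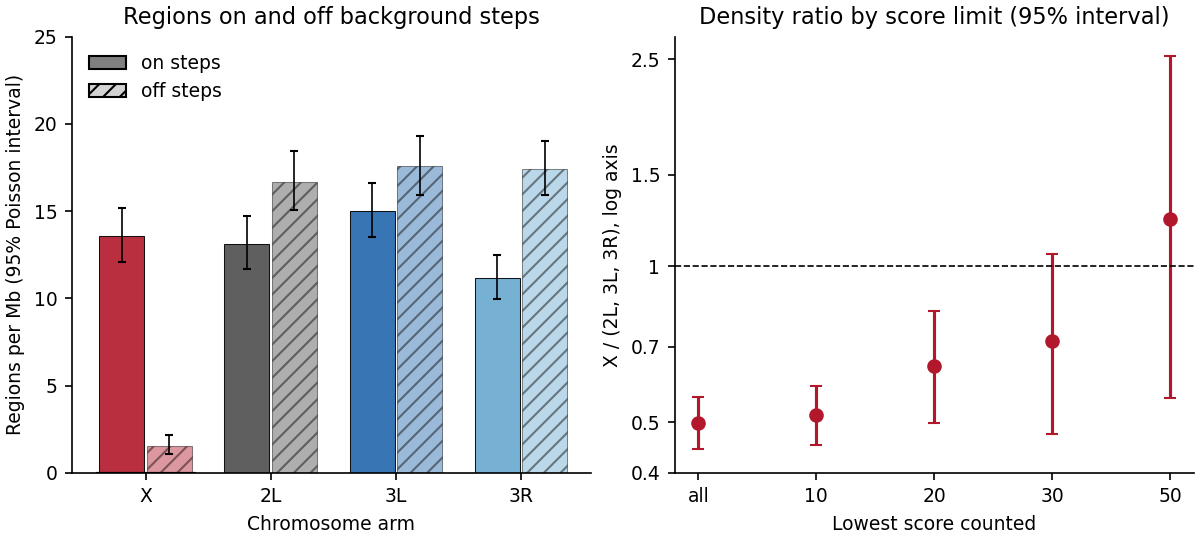
Left, regions per Mb whose score lies on or off the steps of the background fitted to the scores, with exact Poisson 95% intervals. On-step densities lie between 11.2 and 15.0 on all 4 sequences, while off-step density is 1.53 on the X and 16.7 to 17.6 on the others. Right, density ratio of the X to 2L, 3L and 3R together by the lowest score counted, on a log axis with exact 95% intervals, from 0.50 over all regions to 1.23 at scores of 50 and above.

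The scores of X regions fell on a small set of values. The 335 regions shared 113 distinct scores, and 276 regions had a score that another X region also had; the most frequent, 11.98, occurred 14 times. Such ties arise when whole read pileups are set against a single background mean, since MACS takes the upper tail of a Poisson distribution. A background of 63.82 reads, fitted on 2L, 3L and 3R, put 301 X scores (89.9%) within 0.01 of a step, and the X fitted alone gave the same 63.82. On the arms used for the fit the share was 44.0% on 2L, 46.0% on 3L and 39.0% on 3R, or 43.0% together, so most scores there lie off the steps. Of all scores with 2 decimals from 6 to 40, 5.41% lie that close to a step. The step of 11.98 corresponds to 128 reads, or 2.01 times the background. Over X regions on the steps the implied pileup ranged from 1.68 to 4.87 times the background, the latter at 10817770 to 10819781. The implied reads restate the score and may be off by 1 read.

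Counted by these steps, the density of the X was close to that of the other arms for regions on the steps and far below it for regions off them. On the steps the X held 13.6 regions per Mb (12.1 to 15.2), against 13.1 on 2L, 15.0 on 3L and 11.2 on 3R. The ratio to the 3 arms together was 1.04, and it was 0.96 when scores within 0.02 of a step were counted. Off the steps the X held 34 regions, or 1.53 per Mb (1.06 to 2.14), against 16.7 on 2L, 17.6 on 3L and 17.4 on 3R. This ratio was 0.089, with 0.077 when the tolerance was widened to 0.02 and 0.195 when it was narrowed to 0.005. At scores of at least 20 the ratio was 1.24 on the steps and 0.24 off them. Both ratios follow by arithmetic from the density ratio over all regions and the shares on the steps, which were known when the split was chosen, so they are given as a description with no test. The list holds no background value of the caller and no read depth of input or ChIP, so the part of local background in the density of the X was not tested.

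The 34 X regions off the steps were spread over the chromosome, from 650012 to 22422863. The part nearest the telomere held 16 of them, and it also held 33.1% of all X regions. From telomere to centromere, the share of regions on the steps was 85.6%, 93.1%, 93.75% and 85.4% in the equal parts. Whether regions off the steps differ in position from the rest was not tested, so the count of 16 is not read as their trait. The median score of the 34 was 20.6, against 12.9 on the steps, and their median width 425.5 bp, against 323 bp. On the 3 arms together the medians off and on the steps were closer, at 13.0 and 12.3 for the score. Among the 34 were 2 of the 11 highest regions, at 2597764 to 2598129 and at the end of the chromosome. Of the 34, 7 lay between 0.01 and 0.02 from a step, 4 of them with the score 19.48 and 2 with 39.47, so 27 remained off at the wider tolerance. Tied scores are what a step gives, so these tied regions may belong on the steps. The medians given for the 34 include them.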

How the data were processed

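ChIP and input libraries were assigned to groups by their titles. Per the file headers, MACS called the regions on FlyBase release 5. The submitters' processing notes name BWA, MACS2, the build BDGP5 and CASAVA in its versions 1.7.0.2 and 1.7.0.3. How the caller was set, and whether replicates were pooled, is not given in the sources used. The deposited score was read as a −log10 p-value from its values alone. Starts were read as counting from 0, and 1 was added. Depth is unknown.

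Densities were taken over the stretch between an arm's outermost regions and were compared with exact binomial tests (scipy 1.17.1). Shares have exact Clopper-Pearson 95% intervals. The background was searched from 20 to 130 reads in steps of 0.01 over scores under 40. The code was tested on simulated data. Named regions are the 10 highest and 10 widest, clusters of 5 or more, the 5 longest gaps, and the 3 richest and the empty bins. The members, lists and tests were chosen with earlier results of these data known. Alternatives were other score limits, merging, lengths, bins and tolerances. No genome of release 5 was used, so no sequence or gene is given.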

Additional observations from a re-analysis of the deposited data

How the results depend on the processing

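The density ratio of the X to 2L, 3L, 3R and the 3 together kept its direction and its call in 28 of 36 comparisons, under all 7 alternatives other than the 2 highest score limits. At scores of at least 30 it was no longer past the threshold, at 0.75, 0.61, 0.82 and 0.72 in this order, and at 50 and above it turned to 1.11, 1.01, 1.73 and 1.23. Only 32 and 11 X regions remained at these limits, and the cause was not tested. The ratio of loci also kept both, at chaining distances of 2 and 10 kb and at scores of at least 20. The ratio of regions on the background steps, turned to 0.96 at a tolerance of 0.02, and the off-step ratio was 0.195 at a tolerance of 0.005. The alternatives for the 2 highest score limits, loci, the midpoint, scaled gaps and densities by step were added after seeing the data. The share of X regions with a neighbour was 45.4% at 2 kb, 68.4% at 10 kb and 38.9% after merging within 500 bp, as those settings are built to do. The median X score was 15.2 among scores of at least 10, by construction. Shifting bins by 250 kb gave 2 empty X bins, with a richest bin of 31 regions at another place. The share of X scores on the steps was 75.2% at a tolerance of 0.005. The median scaled gap was 0.30 after merging within 500 bp. No paired analysis was possible because no column of the list belongs to a single library, which also prevents leaving one out. Without library depths, sites below the caller's limit cannot be called unbound.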

Other observations

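The sequence XHet, mapped heterochromatin of the X that the list keeps apart from the X itself, held 1 region, 699 bp from 42 to 740. Its score of 126.23 lies above every score on the X, where the highest was 108.11. The region lies at the very start of its sequence, and whether that position plays a part in the score was not tested.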
